A study of Mus musculus with 6 samples.

Results

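Genes for enzymes that start, branch, extend or cap glycans were followed in oesophageal tumours of mice labelled WT (Ptpro+/+) and Ptpro-KO (Ptpro-/-). They were chosen by gene symbol: every symbol that starts with Mgat, Fut, St3gal, St6gal, St8sia, B3gnt, B4galt, Galnt or Gcnt followed by a digit, apart from pseudogene symbols ending in -ps, of which there were 0. This gave 69 of the 41253 symbols in the deposited count files: 8 Mgat, 8 Fut, 6 St3gal, 2 St6gal, 7 St8sia, 9 B3gnt, 7 B4galt, 17 Galnt and 5 Gcnt symbols. The symbols Galnt6os and St8sia3os are antisense transcripts and not enzymes, and B3gnt1 is an older symbol of the gene that GENCODE M21 names B4gat1. All 6 mice were C57BL/6 animals given the carcinogen 4NQO in drinking water (labelled 100 mg/mL) from 6 weeks of age for 16 weeks and killed 12 weeks later, or earlier after marked weight loss. The labels disagree on age at collection, with a tag at week 6 and a design text at 34 weeks. There were 3 libraries of total RNA per label, each taken as 1 mouse, and the labels do not say what the targeted Ptpro allele lacks or how it was made.

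N-glycans are joined to asparagine and O-glycans to serine or threonine, and both are extended in the Golgi by glycosyltransferases that each form 1 kind of linkage. Mgat enzymes start the antennae (branches) of N-glycans, Galnt enzymes place the first sugar of mucin-type O-glycans, and Gcnt enzymes branch those O-glycans or the lactosamine chains on them. B3gnt and B4galt enzymes lengthen the chains with N-acetylglucosamine and galactose, and Fut, St3gal, St6gal and St8sia enzymes end or decorate them with fucose and sialic acid. Squamous epithelium and mucus-secreting or glandular epithelium carry different sets of these structures.

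Reads of the targeted gene ran opposite to the labels: Ptpro held 174, 9 and 67 reads under the WT label and 1094, 1824 and 1921 under the Ptpro-KO label. Every direction below is therefore one between libraries as labelled. The libraries held 25745240 to 39827467 reads, and Xist and Y-linked reads showed both sexes under both labels. Summed CPM, reads relative to the scaled library total, of 10 squamous epithelium markers was 53879.9, 45242 and 47078 under the WT label and 22523, 21924 and 15874 under the Ptpro-KO label, so squamous genes were abundant in all 6, with 5 of 10 called lower in the latter and 0 higher. Of 10 markers of simple and gland epithelium 9 were tested and 5 were called higher (sums 184, 221 and 95.9 against 1202, 2411 and 1763). Replicate 3 of Ptpro-KO stood apart by 10 stomach epithelium markers, with a sum of 18433 CPM against at most 32.9 elsewhere. Replicate 2 of Ptpro-KO stood apart by 6 thyroid markers (785 against at most 27.3 CPM). Skeletal muscle markers summed to 62.1 CPM in replicate 2 of WT and 89.1 in replicate 3 of Ptpro-KO, against at least 5204 in the other 4. These are bulk tissues, so fewer cells of a type and less RNA per cell cannot be told apart.

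Most genes for glycan branching and capping had higher estimated levels in the libraries labelled Ptpro-KO than in those labelled WT, and 5 of the 59 members that passed the filter on low counts rose there: Mgat3, B3gnt7, Gcnt1, Mgat4a and Fut4. That is 8.47% of the tested members, against 1.81% of the 17663 genes tested that were called higher (edgeR quasi-likelihood test, adjusted p under 0.05). No tested member was called lower by edgeR (0 of 59, against 2.29% of all genes). At an unadjusted p under 0.05, edgeR gave 26 members higher and 2 lower, against 13.7% and 11.3% of all genes. DESeq2 called 22 of the 59 higher and 2 lower by adjusted p, against 9.52% and 8.37% of all genes. The estimated log2 fold change was above 0 for 49 of the 59 (83.1%, against 53.3% of all genes), with a median of 0.76 against 0.03. All 3 libraries labelled Ptpro-KO lay above all 3 labelled WT for 27 tested members (45.8%, against 16.8% of all genes) and below for 3 (5.08%, against 15.7%). Mgat3 (28, 5 and 16 reads under the WT label) and Gcnt3 (6, 12 and 12) met the filter on low counts only with the libraries labelled Ptpro-KO. The same held for Galnt5 (103, 0 and 55), St6gal2 (4, 0 and 21), Mgat4c (10, 8 and 14) and St8sia3 (13, 7 and 20). All of these but St8sia3 are in the count of estimates above 0. Mgat3 and Gcnt3 are also in the counts of separate groups and of an edgeR unadjusted p under 0.05. Mgat3 is among the 5 called and among the members DESeq2 called higher. Reads on the 69 genes made up 0.106%, 0.127% and 0.107% of all reads under the WT label and 0.192%, 0.218% and 0.242% under the Ptpro-KO label. The simple and gland epithelium markers above, fibroblast markers (2 of 10 called higher, sums 2140.0, 449 and 983 against 4595, 5005 and 3310.1 CPM) and macrophage markers (sums 358, 90.9 and 147 against 1240.0, 949.5 and 608 CPM) had higher sums under the same label, and their part in these counts was not tested. Of the 10 macrophage markers edgeR called 0, with 9 higher at an unadjusted p under 0.05 and 9 called higher by DESeq2. None of the markers of these 3 lists was at 0 reads in the libraries labelled Ptpro-KO.

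The calls of the 5 genes depended on single libraries, on a term for sex and on the tool. Without replicate 2 or replicate 3 of WT, or without replicate 2 of Ptpro-KO, edgeR called 0 members and 0 of all genes, with 23, 16 and 22 members higher at an unadjusted p under 0.05 against 10.2%, 8.64% and 13.3% of all genes. Of these, 21, 16 and 20 were among the 26 higher with all libraries. DESeq2 called all 5 in each of those 3 fits, among 19, 12 and 20 members higher, against 6.9%, 5.75% and 9.26% of all genes. Sex was unbalanced, with 1 female and 2 male libraries under the WT label and 2 and 1 under the other. With a term for sex edgeR kept the call of Mgat3 (adjusted p = 0.0402) and lost those of B3gnt7 (0.0584), Fut4 (0.0641), Gcnt1 (0.0680) and Mgat4a (0.0702), whose log2 fold changes were then 2.54, 3.203, 2.57 and 1.79.

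**Figure D1:**
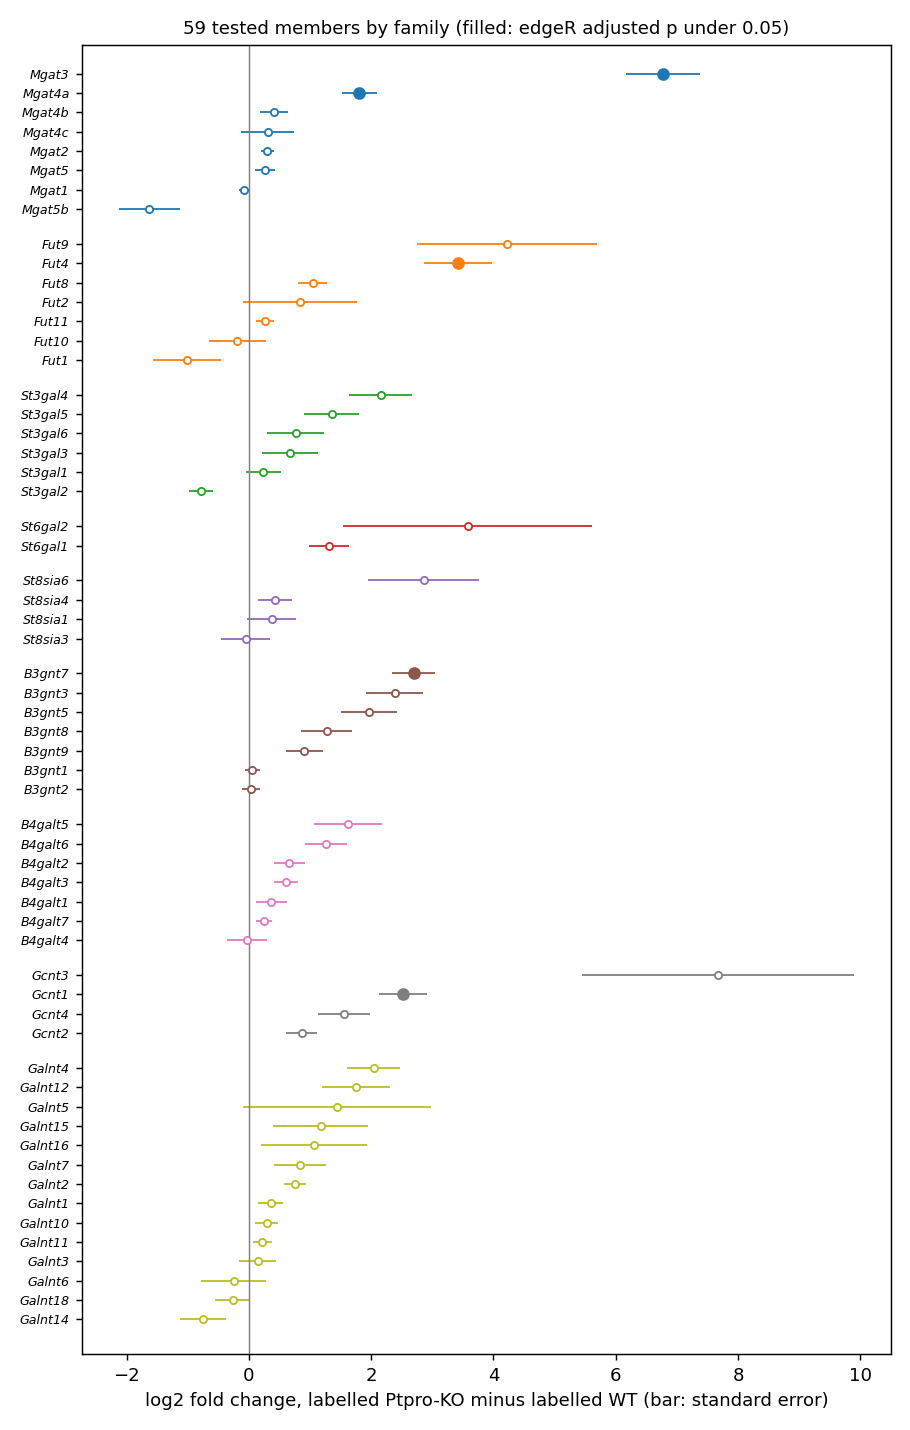
Log2 fold change (labelled Ptpro-KO minus labelled WT) of each of the 59 tested members, grouped by family, with bars for the standard error and filled points for an edgeR adjusted p under 0.05. The 5 filled points all lie to the right of 0, and 49 of the 59 estimates are above 0.

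The widest difference among the called genes was in the Mgat family, which starts the antennae of N-glycans. Mgat3 adds the bisecting N-acetylglucosamine, a residue in the middle of the N-glycan core that hinders further branching. It measured 0.812, 0.199 and 0.5695 CPM under the WT label and 64.2, 80.6 and 33.8 CPM under the Ptpro-KO label (GRCm38 chromosome 15, 80173721 to 80215519, plus strand, ENSMUSG00000042428). The 2 groups were far apart, from 49 reads in all to 7035. The reads under the WT label (28, 5 and 16) would not have met the filter on low counts by themselves. Mgat3 rose 109.6-fold, from 0.527 ± 0.309 to 59.5 ± 23.7 CPM (SD, n = 3 each), with log2 fold change 6.78, SE 0.61, edgeR adjusted p = 0.0125. Leaving out 1 library at a time kept its log2 fold change between 6.41 and 7.24, but the adjusted p of edgeR passed 0.05 without replicate 2 of WT (0.0565), replicate 3 of WT (0.0850) or replicate 2 of Ptpro-KO (0.0524). Within each sex the log2 difference was 5.74 (females, 1 against 2 libraries) and 7.65 (males, 2 against 1). Limma gave Mgat3 a log2 fold change of 3.75 on log2(FPKM + 1) and 5.99 on log2(FPKM + 0.1). The size of the fold thus depended on the scale, with values close to 0 under the WT label.

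Mgat4a, which starts an antenna on the other mannose arm from Mgat5, also rose. It measured 38.8, 27.02 and 22.6 CPM under the WT label and 73.3, 128 and 107 CPM under the Ptpro-KO label (chromosome 1, 37439340 to 37541016, minus strand, ENSMUSG00000026110). The groups did not overlap, and the rise was 3.48-fold from 29.5 ± 8.36 to 103 ± 27.5 CPM (SD, n = 3 each), with log2 fold change 1.800, SE 0.29, edgeR adjusted p = 0.0351. Its call was lost when any 1 library was left out, with adjusted p from 0.0576 to 0.149 by edgeR and log2 fold changes from 1.598 to 2.04. The difference was smaller between the libraries numbered 1, whose deposited file names share a prefix, than between the others (0.92 against 2.24 on the log2 scale), and in females than in males (1.19 against 2.37). Neither contrast was tested.

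The other Mgat enzymes did not pass the test of edgeR. Mgat1, which starts the first antenna and so opens the path to all complex N-glycans, was at 73.04, 68.3 and 67.5 against 66.5, 65.4 and 65.5 CPM (labelled WT against labelled Ptpro-KO), with the narrowest range of all tested members among the libraries labelled Ptpro-KO. Its estimate was -0.08 (edgeR adjusted p = 0.587) and changed sign to 0.07 with scaling by library totals alone. Mgat2, which starts the second antenna, was at 56.7, 58.6 and 55.3 against 68.8, 63.5 and 77.6 CPM (log2 fold change 0.300, SE 0.11, edgeR adjusted p = 0.152). Mgat5, which starts the antenna that carries much of the polylactosamine in tumours, was at 41.7, 60.02 and 53.9 against 63.2, 55.3 and 67.5 CPM (log2 fold change 0.26, SE 0.16, edgeR adjusted p = 0.386), and the groups overlapped. Mgat4b, the close relative of Mgat4a, was at 28.6, 43.1 and 26.5 against 34.8, 46.8 and 48.7 CPM and did not pass the test either. Mgat5b, a relative of Mgat5 best known from brain, pointed the other way with 3.28, 6.496 and 9.54 against 2.93, 1.27 and 2.03 CPM (log2 fold change -1.63, SE 0.50, edgeR adjusted p = 0.118), and DESeq2 called it lower (adjusted p = 0.0171).

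Because Mgat3 and Mgat5 act on the same N-glycans, their ratio was taken within each library. The log2 ratio of Mgat3 to Mgat5 CPM was -5.58, -7.86 and -6.43 under the WT label and 0.02, 0.54 and -0.998 under the Ptpro-KO label. Every library labelled WT had a lower ratio than any labelled Ptpro-KO. The means were -6.62 ± 1.15 and -0.14 ± 0.78 (SD, n = 3 each), and the difference of 6.48 had an exact two-sided permutation p of 0.1, the smallest that 3 libraries against 3 allow. Without any 1 library the difference ran from 5.86 to 7.0.

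**Figure D2:**
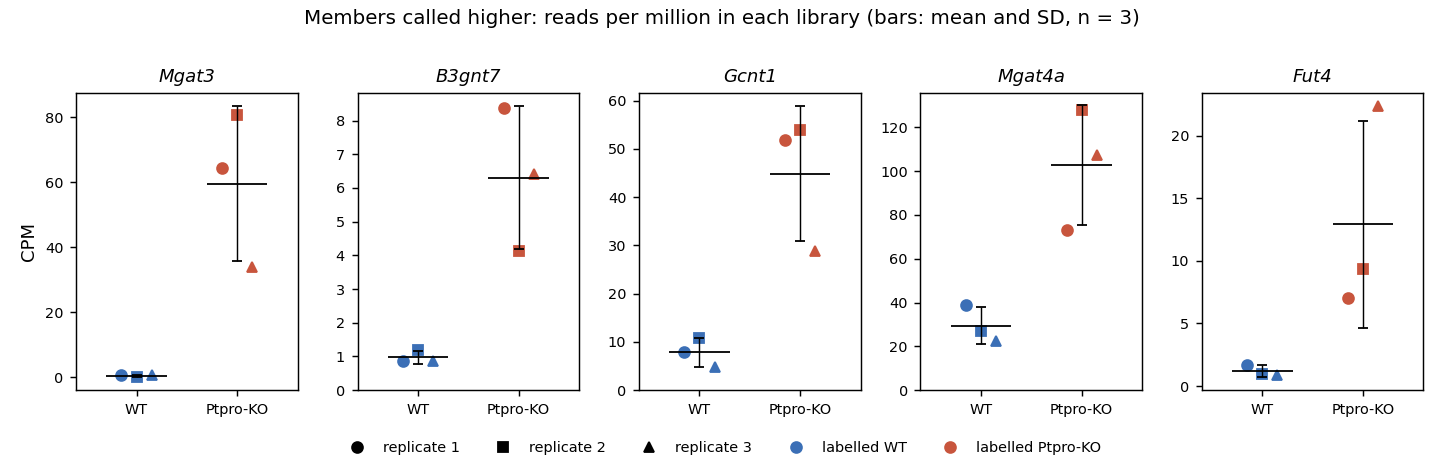
CPM of the 5 called members in each of the 6 libraries on linear axes, by label, with the mean and SD of each group (n = 3) as bars and the replicate number as the point shape. In each panel the 3 libraries labelled Ptpro-KO lie above the 3 labelled WT, and the replicate that is highest differs between genes.

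Gcnt1, the general core 2 enzyme, adds the branch on O-glycans that can carry long lactosamine chains and selectin ligands. It measured 8.003, 10.7 and 4.699 CPM under the WT label and 51.9, 53.98 and 28.8 CPM under the Ptpro-KO label (chromosome 19, 17326141 to 17372844, minus strand, ENSMUSG00000038843). The lowest library labelled Ptpro-KO was still above the highest labelled WT. Gcnt1 rose 5.75-fold from 7.81 ± 3.02 to 44.9 ± 14.01 CPM (SD, n = 3 each), with log2 fold change 2.52, SE 0.39, edgeR adjusted p = 0.0333. Leaving out replicate 3 of Ptpro-KO kept the call (adjusted p = 0.0365), and leaving out any other library ended it, with adjusted p of 0.0799 to 0.133 by edgeR and log2 fold changes of 2.26 to 2.81.

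The other branching enzymes of the family did not pass the test of edgeR, though DESeq2 called Gcnt2 (adjusted p = 0.0211) and Gcnt4 (0.0125) higher. All 4 tested Gcnt genes had an unadjusted p under 0.05 with edgeR, non-overlapping groups and estimates above 0. Of all genes, 13.7%, 16.8% and 53.3% met each of these in the higher direction. Gcnt3, 1 of the 4, met the filter on low counts only with the libraries labelled Ptpro-KO. Gcnt2, the I-branching enzyme that turns linear lactosamine chains into branched ones, was at 51.5, 39.9 and 34.9 against 86.1, 91.02 and 52.97 CPM (log2 fold change 0.87, SE 0.25, edgeR adjusted p = 0.109). Gcnt4, a further core 2 enzyme, was at 1.97, 2.11 and 1.07 against 5.48, 6.76 and 2.87 CPM (log2 fold change 1.55, SE 0.43, edgeR adjusted p = 0.0992). Gcnt3, the mucin-type enzyme of core 2 and core 4 known from stomach and gut, was at 0.174, 0.478 and 0.427 against 4.54, 2.02 and 211 CPM (log2 fold change 7.67, SE 2.22, edgeR adjusted p = 0.107). Nearly all of its signal lay in replicate 3 of Ptpro-KO, the library with the stomach markers, and without it the log2 fold change was 3.19 in place of 7.67. With all 6 libraries DESeq2 gave Gcnt3 no adjusted p. Without replicate 3 of Ptpro-KO it called Gcnt3 higher (log2 fold change 3.20, adjusted p = 0.000302). It did so too without replicate 1 (8.18, adjusted p = 8.09e-05) or replicate 2 (8.19, adjusted p = 7.45e-06) of that label. Both of those fits keep replicate 3, with 7988 reads, in a group of 2 beside a library of 86 or 164 reads. The log2 ratio of Gcnt3 to Gcnt1 was -5.11, -4.33 and -3.29 under the WT label and -3.499, -4.70 and 2.87 under the Ptpro-KO label, a difference of 2.47 with an exact two-sided permutation p of 0.5. That difference was 0.14 without replicate 3 of Ptpro-KO. Gcnt7 was listed at 0 reads in all 6 count files, while the deposited FPKM table put it at 1.91, 1.86 and 2.22 against 2.14, 2.26 and 2.19, so its level cannot be read from the counts.

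**Figure D3:**
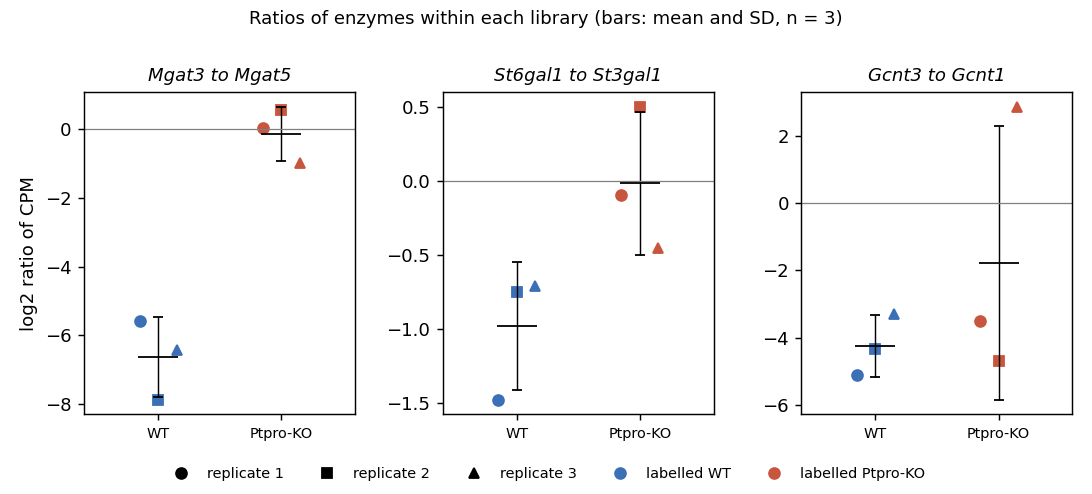
Log2 ratio of CPM between pairs of enzymes within each library, by label, with mean and SD (n = 3) as bars. Mgat3 to Mgat5 moves from between -7.86 and -5.58 to between -0.998 and 0.54, St6gal1 to St3gal1 shifts by 0.97, and Gcnt3 to Gcnt1 is above 0 only in replicate 3 of Ptpro-KO.

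B3gnt7 adds N-acetylglucosamine in the chains of keratan sulfate and related polylactosamine. It measured 0.8699, 1.196 and 0.854 CPM under the WT label and 8.39, 4.13 and 6.404 CPM under the Ptpro-KO label (chromosome 1, 86302832 to 86307305, plus strand, ENSMUSG00000079445), resting on 84 and 722 reads. It was a minor transcript under either label, and the groups did not overlap. B3gnt7 rose 6.47-fold from 0.973 ± 0.193 to 6.31 ± 2.13 CPM (SD, n = 3 each), with log2 fold change 2.69, SE 0.35, edgeR adjusted p = 0.02497. The call held without replicate 3 of Ptpro-KO (adjusted p = 0.0471) and was lost without any other library, where edgeR gave 0.0524 to 0.137 with log2 fold changes of 2.40 to 2.91.

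Among the other chain-extending enzymes the largest estimates were those of B3gnt3 and B3gnt5. B3gnt3, which extends core 1 O-glycans, was at 10.2, 8.21 and 9.93 against 19.6, 63.9 and 64.5 CPM (log2 fold change 2.38, SE 0.47, edgeR adjusted p = 0.0517). B3gnt5, which starts the lacto-series of glycolipids, was at 1.51, 0.558 and 0.5695 against 3.16, 3.99 and 3.29 CPM (log2 fold change 1.97, SE 0.46, edgeR adjusted p = 0.0724). For both, all 3 libraries labelled Ptpro-KO were above all 3 labelled WT, and DESeq2 called both higher. B3gnt2, the main polylactosamine enzyme, with the highest RPKM of the family by the mean of the 6 libraries though below B3gnt3 under the Ptpro-KO label, was at 42.5, 54.9 and 39.7 against 47.6, 43.8 and 49.3 CPM and overlapped fully (log2 fold change 0.04, edgeR adjusted p = 0.899). B3gnt8, a partner of B3gnt2, and B3gnt9 had non-overlapping groups without passing the test of edgeR (1.27 and 0.904 on the log2 scale). They overlap Bckdha and D230025D16Rik on the opposite strand, and without stated strand reads of such partners cannot be told apart. Bckdha was at 32.6, 29.9 and 36.8 against 37.9, 47.8 and 43.6 CPM. D230025D16Rik was at 32.2, 45.9 and 43.4 against 28.3, 35.4 and 31.995 CPM. B3gnt1, an enzyme of O-mannose glycans on dystroglycan under its newer name B4gat1, was at 18.5, 19.1 and 20.5 against 20.2, 21.7 and 18.3 CPM with no separation.

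Of the 7 B4galt genes, which add galactose to N-acetylglucosamine or other acceptors, 0 were called by edgeR. At an unadjusted p under 0.05 edgeR gave 4 higher and 0 lower (all genes 13.7% and 11.3%), and DESeq2 called 3 higher (all genes 9.52%). B4galt6 and B4galt5, both of which make lactosylceramide, were at 9.37, 11.4 and 9.54 against 14.7, 21.7 and 36.3 CPM and 13.3, 2.99 and 5.55 against 24.4, 25.99 and 17.03 CPM (1.26 and 1.62 on the log2 scale, edgeR adjusted p = 0.0966 and 0.143). B4galt3 was at 18.2, 20.01 and 16.4 against 20.95, 32.9 and 29.4 CPM (log2 fold change 0.61, SE 0.20, edgeR adjusted p = 0.131), and it overlaps Ppox on the opposite strand. Ppox was itself higher without overlap, at 15.8, 18.5 and 17.7 against 19.1, 27.1 and 22.3 CPM. B4galt1, the general galactosyltransferase and the most abundant of the family per length, was at 83.6, 136 and 72.5 against 142, 115 and 118 CPM, with overlapping groups (log2 fold change 0.36, SE 0.26, edgeR adjusted p = 0.428). B4galt7, which builds the linker of proteoglycans, was at 21.6, 22.8 and 22.2 against 26.3, 29.96 and 23.1 CPM (edgeR adjusted p = 0.28996). The groups thus overlapped for both B3gnt2 and B4galt1.

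Fut4 makes the Lewis X type of fucose decoration that selectins and stage-specific antibodies read. It measured 1.71, 0.996 and 0.8899 CPM under the WT label and 7.002, 9.38 and 22.3 CPM under the Ptpro-KO label (chromosome 9, 14748320 to 14752393, minus strand, ENSMUSG00000049307). The groups did not overlap, and the highest value came from replicate 3 of Ptpro-KO. Fut4 rose 10.7-fold from 1.199 ± 0.446 to 12.9 ± 8.24 CPM (SD, n = 3 each), with log2 fold change 3.42, SE 0.56, edgeR adjusted p = 0.0368. Without replicate 3 of Ptpro-KO it still passed (log2 fold change 2.76, adjusted p = 0.0411), and without any other library it did not, at 0.0687 to 0.165 with edgeR.

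Fut8, the only enzyme of core fucose on N-glycans, was at 22.5, 29.6 and 20.6 against 47.8, 38.2 and 63.3 CPM with no overlap (log2 fold change 1.04, SE 0.23, edgeR adjusted p = 0.0671), called higher by DESeq2 (adjusted p = 0.00187) but not by edgeR. Limma on log2(FPKM + 1) called it (0.0444), and did not when the filter on low values was dropped (0.0647), nor did limma-voom on the counts (0.0759). Fut9, which like Fut4 makes Lewis X, was at 1.54, 3.63 and 1.495 against 1.13, 100.2 and 22.2 CPM (log2 fold change 4.22, SE 1.47, edgeR adjusted p = 0.1499). It was high in replicate 2 and intermediate in replicate 3 of Ptpro-KO, while replicate 1 was below every library labelled WT. Fut2 and Fut1 make the H antigen, Fut2 in secretory epithelium. Fut2 was at 11.3, 7.73 and 11.9 against 5.12, 4.48 and 45.3 CPM, high in the library with the stomach markers and lowest in the other 2 of its label. Fut1 was at 3.22, 4.38 and 4.02 against 1.11, 0.985 and 3.64 CPM (log2 fold change -1.02, SE 0.56, edgeR adjusted p = 0.318), and without replicate 3 of Ptpro-KO it was the only member edgeR called lower (log2 fold change -1.89, adjusted p = 0.0470). DESeq2 called Fut2 lower as well in that fit (-1.10 on the log2 scale, adjusted p = 0.00235), and gave Fut2 no adjusted p with all libraries. Fut7, the leukocyte enzyme of sialyl Lewis X, was too low to test (8, 3 and 2 reads against 2, 8 and 8). Fut1, Fut2 and Fut7 were named after their values were seen.

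No sialyltransferase was called by edgeR: 0 of 6 St3gal, 0 of 2 St6gal and 0 of 4 tested St8sia genes. At an unadjusted p under 0.05, 2, 1 and 1 were higher and 1, 0 and 0 lower (all genes 13.7% and 11.3%). DESeq2 called the same counts (all genes 9.52% and 8.37%). St3gal4, which adds sialic acid in the α2,3 linkage to lactosamine, had the highest RPKM (reads per length) by the mean of the 6 libraries, though not within the WT label, and measured 24.8, 30.4 and 41.3 against 164, 212 and 53.8 CPM (log2 fold change 2.16, SE 0.52, edgeR adjusted p = 0.0765). Its groups did not overlap, but replicate 3 of Ptpro-KO was far below the other 2, and without it edgeR called St3gal4 higher (2.55 on the log2 scale, adjusted p = 0.0285). St3gal4 overlaps the transcript 4930581F22Rik on the opposite strand, which held 1559 reads against 19792. That transcript was itself higher without overlap, at 3.65, 5.101 and 6.23 against 10.4, 10.1 and 8.51 CPM. St3gal5, which makes the ganglioside GM3, was at 3.57, 1.63 and 3.92 against 9.91, 4.53 and 8.96 CPM (log2 fold change 1.36, SE 0.45, edgeR adjusted p = 0.138). St3gal2, which acts on core 1 O-glycans and gangliosides, lay lower in all 3 libraries labelled Ptpro-KO at 40.1, 49.7 and 41.4 against 32.4, 20.8 and 23.01 CPM (log2 fold change -0.78, SE 0.20, edgeR adjusted p = 0.0842), and DESeq2 called it lower (adjusted p = 0.0101).

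St6gal1, which caps N-glycans with sialic acid in the α2,6 linkage, was at 10.2, 12.8 and 8.15 against 26.5, 34.96 and 15.9 CPM (log2 fold change 1.31, SE 0.33, edgeR adjusted p = 0.0833). The groups did not overlap, and without replicate 3 of Ptpro-KO edgeR called it higher (1.56 on the log2 scale, adjusted p = 0.0496). St6gal1 overlaps the transcript BC106179 on the opposite strand, which held 1397 reads against 3955 and was itself at 6.58, 4.902 and 6.73 against 7.56, 7.81 and 6.64 CPM. The log2 ratio of St6gal1 to St3gal1, an α2,3 enzyme of core 1 O-glycans, was -1.48, -0.75 and -0.71 under the WT label and -0.09, 0.501 and -0.46 under the Ptpro-KO label. The ratio was higher in all 3 of the latter, by 0.97, with an exact two-sided permutation p of 0.1, and the difference ran from 0.71 to 1.18 when 1 library was left out. St6gal2, its relative known from brain, was at 0.116, 0 and 0.748 against 0.581, 0.0235 and 9.83 CPM, nearly all of it in replicate 3 of Ptpro-KO (log2 fold change 0.04 without that library). St8sia6, which adds a second sialic acid on O-glycans, was at 2.15, 1.39 and 1.07 against 2.297, 6.24 and 24.98 CPM (log2 fold change 2.86, SE 0.91, edgeR adjusted p = 0.129), again highest in that library. St8sia4, a polysialic acid enzyme with the highest RPKM of its family, was at 21.8, 14.5 and 13.99 against 28.2, 15.7 and 23.4 CPM and overlapped between groups. St8sia1, which makes the ganglioside GD3, was at 3.31, 2.71 and 3.702 against 6.56, 2.42 and 3.64 CPM and overlapped too.

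The 17 Galnt symbols, whose enzymes place the first N-acetylgalactosamine of mucin-type O-glycans, formed the largest family. Of 14 tested, edgeR called 0, with 3 higher and 0 lower at an unadjusted p under 0.05 (all genes 13.7% and 11.3%). DESeq2 called 3 higher (all genes 9.52%). Galnt1, the most abundant of them per length, was at 104, 144 and 126 against 200.1, 134 and 145 CPM with overlapping groups (log2 fold change 0.35, SE 0.20, edgeR adjusted p = 0.335). Galnt2, another broadly expressed initiator, was at 74.6, 67.8 and 68.2 against 96.6, 109 and 150.2 CPM (log2 fold change 0.76, SE 0.18, edgeR adjusted p = 0.0746). Galnt4, which prefers peptides that already carry a sugar, was at 19.4, 17.5 and 17.8 against 42.3, 54.1 and 129 CPM (log2 fold change 2.04, SE 0.43, edgeR adjusted p = 0.0607), and Galnt12 was at 4.87, 4.94 and 5.16 against 9.41, 8.49 and 32.5 CPM (log2 fold change 1.75, SE 0.56, edgeR adjusted p = 0.131). For these 3 the groups did not overlap (higher without overlap: 16.8% of all genes), and replicate 3 of Ptpro-KO was the highest library. Galnt4 shares its locus and strand with Poc1b, and the counts do not show how shared reads were split. The other 11 tested members overlapped between groups. Of these, Galnt15 and Galnt16 were lowest within their label in replicate 2 of WT and in replicate 3 of Ptpro-KO, the libraries with few muscle reads: Galnt15 was at 19.1, 4.703 and 17.3 against 44.4, 40.6 and 7.696 CPM and Galnt16 at 7.63, 0.598 and 2.67 against 8.66, 10.3 and 3.901 CPM. Galnt16 was nevertheless lower in replicate 3 of WT, which held muscle reads, than in replicate 3 of Ptpro-KO. Both were named after their values were seen, and the part of muscle tissue was not tested.

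Levels can be compared between genes only per length, for which the deposited RPKM (reads relative to transcript length and library total), summed over the transcripts of a gene, was used. Averaged over the 6 libraries, St3gal4 was highest with 44.6 RPKM, followed by Galnt1 (38.2), B4galt1 (28.4), Mgat1 (26.7), Mgat2 (24.4) and Galnt2 (23.5). St3gal4 was at 11.2, 14.6 and 19.4 RPKM under the WT label, below Galnt1 (25.9, 37.5 and 32.97) in each and at rank 7 by the mean of that label, and at 82.1, 112 and 28.1 under the other label, where Galnt1 (53.9, 38.4 and 40.7) was higher in replicate 3. In RPKM, Mgat3 went from 0.1597, 0.0416 and 0.117 to 13.98, 18.5 and 7.67, above Mgat5 (8.17, 7.55 and 9.14) in 2 of the 3 libraries of that label. Among the 69 members ranked by mean RPKM within a label, Mgat3 was at rank 57 under the WT label and 19 under the Ptpro-KO label. Gcnt1 was at ranks 36 and 22, Mgat4a at 24 and 14, Fut4 at 51 and 42 and B3gnt7 at 47 and 45.

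The 10 members that were not tested had 0 to 46 reads in all 6 libraries together. B3gnt6, which makes core 3 O-glycans, had 7, 2 and 2 reads against 8, 14 and 13, and St8sia2, a polysialic acid enzyme of developing brain, had 1, 0 and 2 reads against 20, 6 and 9. Both were highest under the Ptpro-KO label, on counts too few for a test. The antisense transcript Galnt6os had 7 reads, all in replicate 3 of Ptpro-KO, and St8sia3os had 3. B3gnt4, Fut7, Galnt9, Galnt13 and St8sia5 had 8 to 31 reads each. All of these were named because they are the members without a test.

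**Figure D4:**
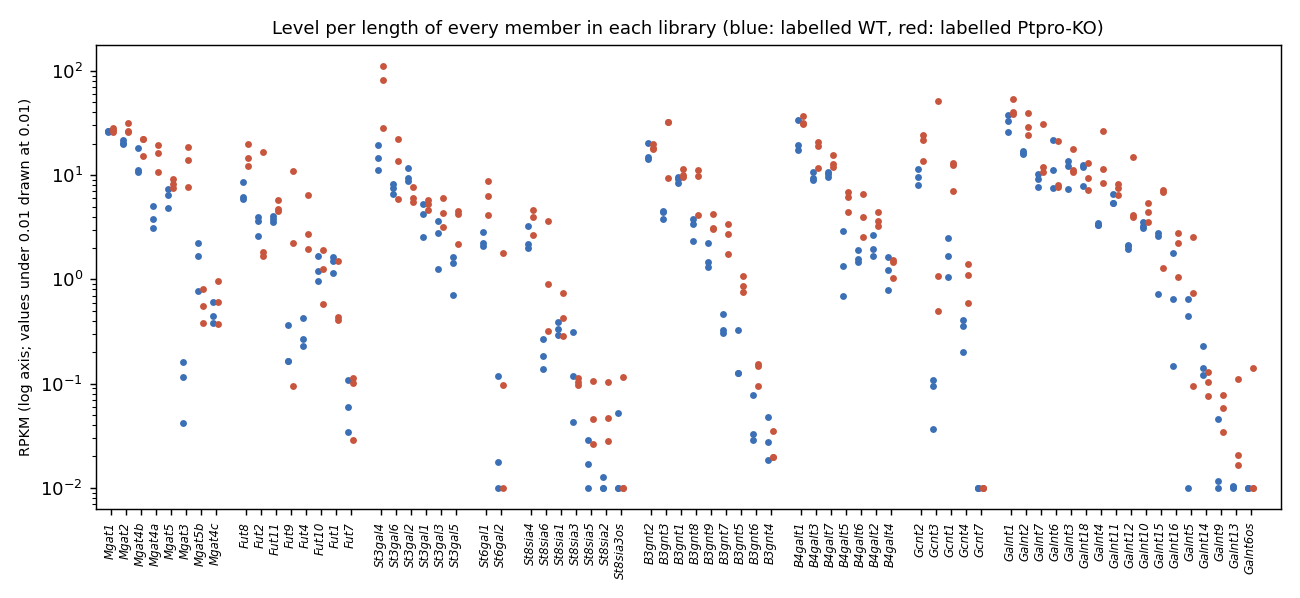
RPKM of all 69 members in each of the 6 libraries on a log axis, grouped by family and ordered within it by mean level (blue, labelled WT; red, labelled Ptpro-KO; values near 0 drawn at the lower edge). St3gal4, Galnt1 and B4galt1 lie at the top, and the blue and red points of Mgat3 and of Fut4 lie in separate ranges.

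Several members were far higher in 1 library labelled Ptpro-KO than in the others of that label. Among the libraries labelled Ptpro-KO the range of log2 CPM was widest for St6gal2 (6.91), Gcnt3 (6.66), Fut9 (6.39), Galnt5 (4.55), St8sia6 (3.41) and Fut2 (3.32), and replicate 3 was the highest of the 3 for all of these but Fut9, which was highest in replicate 2. Galnt5, another initiating enzyme, was at 2.99, 0 and 1.96 against 3.0998, 0.375 and 10.1 CPM, and its range was wider still among the libraries labelled WT (5.70). Galnt5 and Fut2 were named for their range under the Ptpro-KO label. Of the 59 tested members, 20 were highest in replicate 3, 17 in replicate 2 and 10 in replicate 1 of Ptpro-KO, and 2, 5 and 5 in replicates 1, 2 and 3 of WT. Of all genes tested, 18.7%, 21%, 16.9%, 12.2%, 18.1% and 13.1% were highest in the same 6 libraries. The stomach markers (5 of 10 tested, 0 called by edgeR or DESeq2, 5 higher at an unadjusted p under 0.05) were nearly all in replicate 3, where Gcnt3, Fut2, St6gal2, Galnt5 and St8sia6 peaked, and the thyroid markers (3 of 6 tested) in replicate 2, where Fut9 peaked. Pgc, Muc6, Atp4b, Gif and Gkn2 were at 0 reads in all 3 libraries labelled WT. The tested stomach markers met the filter on low counts only with the libraries labelled Ptpro-KO. The part of either tissue in these values was not tested. Without replicate 3 of Ptpro-KO, edgeR called 8 members higher: Mgat3, B3gnt7, Gcnt1 and Fut4 again, with B3gnt8, Galnt4, St3gal4 and St6gal1. In that fit 1.4% of all genes were called higher and 1.35% lower.

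**Figure D5:**
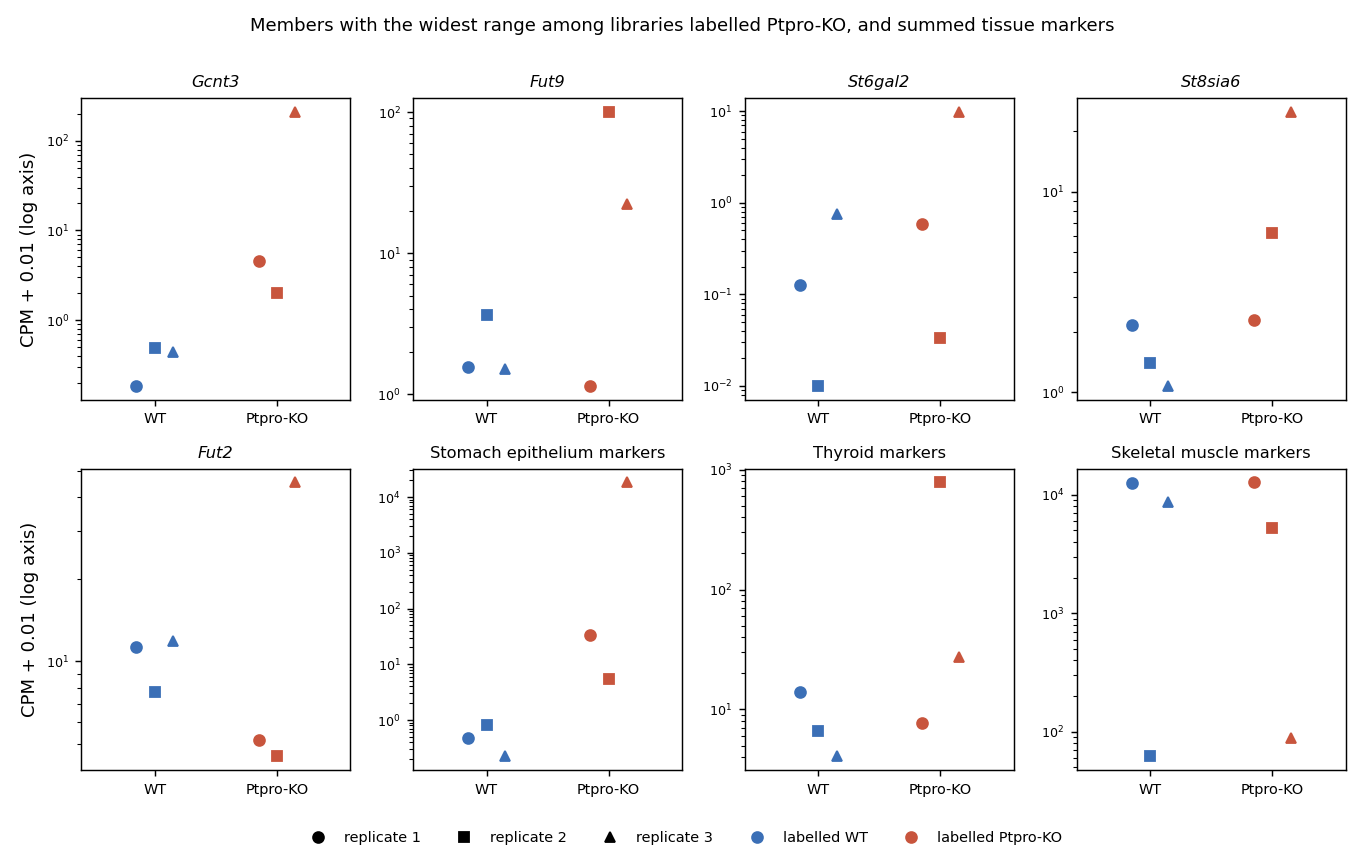
CPM plus a small constant on log axes in each library for Gcnt3, Fut9, St6gal2, St8sia6 and Fut2, beside the summed CPM of stomach, thyroid and skeletal muscle markers. Galnt5, with a wide range under both labels, is not drawn. Gcnt3, St6gal2, St8sia6, Fut2 and the stomach markers are highest in replicate 3 of Ptpro-KO, and Fut9 and the thyroid markers in replicate 2.

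Upstream sequence was compared for 4 of the 5 called genes, B3gnt7, Fut4, Gcnt1 and Mgat4a, with Mgat3 not among the windows used. RefSeq promoter windows (GRCm38.p6, the 250 bases before the start) matched 49 of the 69 members, and those of B3gnt7 and Mgat4a are shown because they lie outside annotated untranslated regions. Both fall inside the GENCODE span of their gene, so neither is upstream of every annotated start. The window of Mgat4a is the one of 2 that lies nearest (169 bases) to the start of its most counted transcript. Mgat4a itself begins at 37541016 on the minus strand, so this window can be intron of longer transcripts and is not shown to be a promoter. The window of B3gnt7 is chr1:86302971-86303220 (plus strand), and that of Mgat4a is chr1:37536405-37536654 (minus strand). Both are given 5′ to 3′ on the strand of the gene, with motif matches in capitals.
B3gnt7: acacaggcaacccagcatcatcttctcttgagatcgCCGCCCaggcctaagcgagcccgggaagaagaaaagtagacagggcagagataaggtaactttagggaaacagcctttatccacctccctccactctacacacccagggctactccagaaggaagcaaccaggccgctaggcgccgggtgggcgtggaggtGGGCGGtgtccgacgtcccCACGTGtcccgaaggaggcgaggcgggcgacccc
Mgat4a: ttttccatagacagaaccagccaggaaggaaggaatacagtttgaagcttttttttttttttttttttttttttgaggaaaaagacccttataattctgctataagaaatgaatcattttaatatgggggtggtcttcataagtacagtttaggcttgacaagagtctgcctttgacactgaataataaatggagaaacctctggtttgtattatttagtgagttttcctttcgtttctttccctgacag
The motifs searched on both strands were the GC box GGGCGG, the AP-1 site TGACTCA, the ETS site CCGGAAG and the E-box CACGTG, which occur in 32.7%, 4.46%, 6.91% and 6.02% of all 32851 windows. B3gnt7 held GC boxes that begin 214 and 53 bases before the start and an E-box 34 bases before it, with 61.6% G or C and 16 CpG pairs. Mgat4a held none of the 4, with 33.6% G or C and 1 CpG pair, and the Fut4 and Gcnt1 windows, not shown, held none either. All 250 bases of the Fut4 window and 63 of the Gcnt1 window lie in annotated untranslated regions. The bases that follow the Gcnt1 window were not found in an annotated transcript of that gene. A missing motif in the windows of Mgat4a, Fut4 or Gcnt1 is therefore no result on a promoter. The median window had 52.4% G or C over all genes and 59.4% over the members. These are matches of letters, not measured sites.

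Genes of the steps that feed these enzymes, or run beside them, were read from the same fit over all genes. The counts of each list stand beside these shares of all genes: 1.81% called higher by edgeR, and 13.7% higher and 11.3% lower at an unadjusted p under 0.05. DESeq2 called 9.52% higher and 8.37% lower. Of 20 genes for the lipid-linked precursor and its transfer to protein, edgeR called 0, with 0 at an unadjusted p under 0.05 and 0 by DESeq2 (median log2 fold change 0.08). Of 9 glucosidases and mannosidases that trim the transferred glycan, edgeR called 1 higher, with 4 higher and 0 lower at an unadjusted p under 0.05. DESeq2 called 3 of them higher. The gene called by edgeR was Man2a1, the Golgi mannosidase that acts right after Mgat1. It was at 100.1, 122 and 98.6 against 185, 232 and 185 CPM (log2 fold change 0.91, SE 0.15, edgeR adjusted p = 0.0365). Man1a, an earlier Golgi mannosidase, was at 71.6, 70.8 and 60.4 against 148, 93.5 and 141 CPM (log2 fold change 0.91, SE 0.20, edgeR adjusted p = 0.0616) and was chosen after its value was seen. Of 16 tested genes of sugar nucleotide synthesis edgeR called 0, with 6 higher and 0 lower at an unadjusted p under 0.05 and 5 higher by DESeq2. Gne, the first enzyme of sialic acid synthesis, was at 19.98, 15.02 and 14.5 against 26.9, 30.3 and 26.5 CPM (log2 fold change 0.76, SE 0.16, edgeR adjusted p = 0.0623), and Galk1, which feeds galactose into the pathway, at 3.86, 1.71 and 2.63 against 7.58, 5.28 and 13.3 CPM (log2 fold change 1.67, SE 0.46, edgeR adjusted p = 0.0987).

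Of 7 sugar nucleotide transporters of the Golgi edgeR called 0, with 1 higher at an unadjusted p under 0.05 and 0 by DESeq2. Slc35a3, which carries UDP-N-acetylglucosamine, was at 51.2, 72.3 and 64.9 against 67.5, 123 and 141 CPM and Slc35c1, which carries GDP-fucose, at 12.4, 11.4 and 10.04 against 14.1, 13.04 and 31.8 CPM. Core 1 and the sialyltransferases acting on N-acetylgalactosamine gave 0 calls of 7 tested, 0 at an unadjusted p under 0.05 and 0 by DESeq2. St6galnac5 and St6galnac4 came nearest, at 0.435, 0.518 and 1.03 against 2.32, 0.586 and 1.58 CPM and 9.97, 2.67 and 5.98 against 21.7, 10.9 and 6.404 CPM. Of 14 tested galactosyl- and N-acetylgalactosaminyltransferases with other symbols edgeR called 0, with 3 higher and 2 lower at an unadjusted p under 0.05 and 2 higher by DESeq2. B4galnt1, which makes the gangliosides GM2 and GD2, was at 41.9, 39.5 and 46.4 against 64.5, 52.97 and 71.8 CPM (log2 fold change 0.57, SE 0.14, edgeR adjusted p = 0.0829), and A4galt, which makes the glycolipid Gb3, at 6.29, 4.22 and 5.41 against 13.1, 6.64 and 15.8 CPM (log2 fold change 1.16, SE 0.36, edgeR adjusted p = 0.124).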

How the data were processed

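Total RNA of 6 tumours was sequenced on a HiSeq 2500 instrument, per the design text. Per the submitters' processing notes, alignment to mm10 used Bowtie 0.12.2. The authors deposited whole read counts and RPKM per Ensembl transcript for each library, per the file headers. A table of FPKM per gene, likewise deposited, held 67 of the 69 members and 2 columns that were not used. Strandedness and the treatment of reads shared by isoforms are not stated in the sources at hand. Counts were summed over the transcripts of each symbol. Positions came from GENCODE M21 (GRCm38, the assembly of mm10), which held 97.2% of the transcripts. The 17663 genes passing filterByExpr (10 counts, scaled by depth, in 3 libraries and 15 in all) were TMM-scaled and compared with edgeR 4.0.16 quasi-likelihood tests (R 4.3.3), labelled Ptpro-KO minus labelled WT. Adjusted p values are Benjamini-Hochberg values over all of them, with a threshold of 0.05. The common biological coefficient of variation was 0.398. The standard error is the log2 fold change over the root of F. Ratios used log2 CPM with a prior count of 2 and an exact permutation test in scipy 1.17.1. The members and gene lists were chosen with earlier results of these data known, so no p adjusted over a list and no list test is given, and the medians and counts are descriptions. Named were all called members, the most abundant and the 3 of smallest p in each family, and of each related list the called genes or the 2 of smallest p. Other names were chosen after their values were seen. The pipeline was tested on simulated counts. No library repeated another of its label (chi-square over degrees of freedom 66.9 to 307). Alternatives were DESeq2 1.42.0, limma 3.58.1 (voom, and log2 FPKM with pseudocounts of 1 and 0.1), other scalings and filters, terms for replicate number, sex and file name prefix, and leaving out each library. FPKM without a filter and DESeq2 without each library were added after seeing the data.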

Additional observations from a re-analysis of the deposited data

How the results depend on the processing

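DESeq2 called 22 members higher and 2 lower (all genes: 1682 and 1478, against 320 and 405 with edgeR), and limma on log2(FPKM + 1) without a filter 181 and 261 of all genes. Scaling by library totals alone called 630 genes higher and 294 lower, 68.2% higher against 44.1% with TMM. It raised the median log2 fold change of all genes by 0.15 and turned the signs of B4galt4, Mgat1 and St8sia3, none of them called. The members' median then lay 0.73 above that of all genes, against 0.72 with TMM. With the replicate number as a block, 2 members, Mgat3 and Gcnt1, stayed called higher (all genes 133 and 104). The deviations of same-numbered libraries correlated at 0.54, 0.08 and -0.24 for replicates 1, 2 and 3. Libraries numbered 1 thus deviated together and the others did not. Replicate 2 of WT and replicate 3 of Ptpro-KO reached 0.41, and the labels name no pairing. A term for sex left 1 member (Mgat3; all genes 64 and 122) and one for the file name prefix 3. Leaving out 1 library gave 0 to 8 members higher and 0 to 1 lower, and 0 to 253 and 0 to 243 of all genes, the lowest without replicate 2 or 3 of WT or replicate 2 of Ptpro-KO. Of 571 further values for 31 named members, 502 kept direction and side of the threshold, 29 passed it, 35 lost it and 5 changed sign without a call. Still called in 19 alternatives were Mgat3 (16), Gcnt1 (13), B3gnt7 (12), Mgat4a (10) and Fut4 (9). The cause of these changes was not tested. Fits without 1 library leave a group of 2. Depth limits the 10 untested members.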

Other observations

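Transcripts of proteins that read or remove these glycans were also counted. Of all genes, edgeR called 1.81% higher and 2.29% lower, with 13.7% and 11.3% at an unadjusted p under 0.05. DESeq2 called 9.52% higher and 8.37% lower. Neu1, the lysosomal neuraminidase that removes sialic acid, rose in the libraries labelled Ptpro-KO from 12.4, 12.99 and 12.4 to 25.8, 26.4 and 35.03 CPM (log2 fold change 1.21, SE 0.16, edgeR adjusted p = 0.0253). It was the only one called of 5 tested neuraminidases and fucosidases. Fuca1, the lysosomal fucosidase, was at 28.5, 32.5 and 32.96 against 41.8, 54.3 and 71.001 CPM (log2 fold change 0.83, SE 0.21, edgeR adjusted p = 0.0807), and Neu2 at 12.03, 7.57 and 10.1 against 4.82, 2.04 and 0.817 CPM (log2 fold change -1.95, SE 0.64, edgeR adjusted p = 0.134). Both were named after their values were seen, and the DESeq2 calls of Fuca1 (higher) and Neu2 (lower) went beyond those of edgeR. Of 7 tested galectins, which bind galactose-ended chains, 6 had estimates above 0 (median of the 7: 0.80 on the log2 scale), with 2 higher at an unadjusted p under 0.05 and 1, Lgals1, called higher by DESeq2 (adjusted p = 0.03598). The one that edgeR called fell: Lgals7, a galectin of stratified epithelium, went from 406, 414 and 384 to 177, 128 and 221 CPM (log2 fold change -1.197, SE 0.21, edgeR adjusted p = 0.0432), beside the squamous markers, of which 5 of 10 were called lower.

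Of 8 Siglecs, sialic acid receptors mostly of leukocytes (Mag is not), 2 rose. Siglec1, a macrophage receptor, went from 9.13, 6.74 and 7.97 to 34.04, 18.3 and 21.6 CPM (log2 fold change 1.63, SE 0.28, edgeR adjusted p = 0.0403), and Cd33 of myeloid cells from 5.77, 3.39 and 3.097 to 26.7, 20.997 and 11.1 CPM (log2 fold change 2.26, SE 0.42, edgeR adjusted p = 0.0463). DESeq2 called 5 of the 8 higher, and the groups did not overlap for 4. Of all genes, edgeR called 1.81% and DESeq2 9.52% higher, and 16.8% were higher without overlap. Macrophage markers summed to 358, 90.9 and 147 against 1240.0, 949.5 and 608 CPM, and their part in the Siglec values was not tested. Of 6 tested selectins and ligand carriers edgeR called 0, with 2 higher at an unadjusted p under 0.05 and 1 by DESeq2. Selplg, a common ligand carrier of selectins, was at 12.2, 6.14 and 5.87 against 22.3, 13.2 and 14.6 CPM. The neutrophil, T and NK cell, B and plasma cell, endothelium, stomach, thyroid, muscle and macrophage marker lists held 62 tested genes, of which edgeR called 0. At an unadjusted p under 0.05, 21 were higher and 2 lower (all genes 13.7% and 11.3%). Of the 21, 5 were stomach markers. These met the filter on low counts only with the libraries labelled Ptpro-KO, and their reads were nearly all in replicate 3 of that label. DESeq2 called 14 higher and 2 lower (all genes 9.52% and 8.37%).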
